A study of Mus musculus with 8 samples.

Results

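Chrna9, Chrna10 and Kcnn2 are genes of the cholinergic synapse that efferent nerve fibres form on cochlear hair cells and of the channel it opens. Chrna1, a gene of the muscle nicotinic receptor, and Rapsn, a receptor clustering gene, were grouped with them. All were taken from the deposited gene table by name, and 5 of its 25343 genes matched the 5 names. RNA was measured in sorted cochlear hair cells of 4 Ndp KO libraries and 4 WT libraries, a design that asks how loss of Ndp, which encodes the secreted factor norrin, changes hair cell RNA. All 8 libraries came from mice of a mixed C57BL/6 and 129 background at postnatal day 4 to 6, and all cells were sorted by the hair cell reporter Atoh1-GFP. Each library came from a tube holding 12 to 20 pooled sensory epithelia. The labels name the genotypes as Ndp KO and WT. The allele behind the KO was not given in the sources used here, nor were the sex of the mice and the litters behind each pool.

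Efferent fibres of the medial olivocochlear system release acetylcholine onto hair cells. The receptor there is built from the subunits of Chrna9 and Chrna10 and lets calcium into the cell. That calcium opens the small-conductance potassium channel SK2, the product of Kcnn2, so that the cell hyperpolarises and is inhibited. In the neonatal cochlea of rodents these fibres contact inner hair cells for a time, before the synapses on outer hair cells mature. Chrna1 encodes the alpha subunit of the muscle nicotinic receptor, and Rapsn encodes rapsyn, which clusters that receptor at the neuromuscular junction.

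The RefSeq promoters (GRCm38.p6) of the 3 subunit genes are shown because these genes stood far above most other genes in all 8 libraries. Each runs from 250 bases before to 50 bases after the transcript start that RefSeq gives. It lies at chr5:65966874-65967173 on the plus strand for Chrna9, at chr7:102116664-102116963 on the minus strand for Chrna10 and at chr2:73580289-73580588 on the minus strand for Chrna1. For Chrna1 that start is the first base of the gene in the deposited table. For Chrna10 it lies 115 bases inside the gene, and for Chrna9 it is an internal start, 32203 bases downstream of the first base of the gene. Each is the start of 1 coding transcript in GENCODE M21, which lists 1 for Chrna1, 2 for Chrna10 and 3 for Chrna9. Which starts these cells used was not measured. Capitals mark CAGCTG, a form of the E-box, the motif class that basic helix-loop-helix factors bind, among them Atoh1 and the muscle factors. The motif reads alike on both strands and is one of the sequences that CANNTG covers.
Chrna9: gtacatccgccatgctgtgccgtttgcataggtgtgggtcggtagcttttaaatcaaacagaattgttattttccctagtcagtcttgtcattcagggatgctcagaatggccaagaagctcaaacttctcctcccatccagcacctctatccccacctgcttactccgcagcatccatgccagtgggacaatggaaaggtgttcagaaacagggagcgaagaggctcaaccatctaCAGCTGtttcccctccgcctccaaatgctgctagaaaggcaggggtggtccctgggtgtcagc
Chrna10: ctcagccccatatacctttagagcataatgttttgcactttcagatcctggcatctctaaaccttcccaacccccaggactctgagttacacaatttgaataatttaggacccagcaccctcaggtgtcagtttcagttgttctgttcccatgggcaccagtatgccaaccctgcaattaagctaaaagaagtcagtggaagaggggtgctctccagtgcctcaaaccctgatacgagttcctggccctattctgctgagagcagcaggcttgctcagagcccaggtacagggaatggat
Chrna1: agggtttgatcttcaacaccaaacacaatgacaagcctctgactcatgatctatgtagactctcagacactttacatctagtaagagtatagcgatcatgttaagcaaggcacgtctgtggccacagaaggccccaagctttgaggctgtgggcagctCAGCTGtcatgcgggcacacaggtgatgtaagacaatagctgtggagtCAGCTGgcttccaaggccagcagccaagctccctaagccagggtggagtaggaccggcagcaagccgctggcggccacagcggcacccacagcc
The Chrna1 promoter held CAGCTG at 2 places, starting 92 and 44 bases before the RefSeq start. The Chrna9 promoter held it at 1 place, starting 13 bases before its internal RefSeq start, and no CAGCTG was in the Chrna10 window. Of 32851 mouse promoters of the same length, 16.3% held at least 1 CAGCTG and 1.9% held 2 or more. The looser CANNTG occurred 3 times for Chrna9, 2 times for Chrna10 and 3 times for Chrna1, and 72.3% of all promoters held it at least 1 time. A match describes the letters only, and no binding was measured. Rapsn and Kcnn2 had no entry in the promoter table.

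Libraries held 35077950 to 48329827 recovered reads. Values are the authors' normalized counts, that is, gene counts divided by a size factor for each library, and each is given as mean ± SD over n = 4 libraries per genotype. A floor of 3 reads was worth 2.34 to 3.49 normalized counts, and it covers counting error only. Ndp itself had 36.2 ± 24.9 normalized counts in KO libraries and 146 ± 53.2 in WT libraries, with no overlap, which followed the labels. Its log2 difference of -2.20 ± 0.56 (SE) had an adjusted p of 0.895 in limma. Hair cell markers were abundant in both genotypes: the summed level of 18 of 18 listed genes was 582657 to 646305 normalized counts in KO libraries and 546766 to 656012 in WT libraries. Among them, Calb1, a calcium buffer, had 191687 ± 13595 and 183686 ± 17716, and Myo6, an unconventional myosin, had 76918 ± 3215 and 78471 ± 19906, KO libraries first. RNA of other cells was present too: supporting cell markers (12 of 12) summed to 271730.5 to 365307 in KO libraries and 213353 to 418857 in WT libraries. Their most abundant genes were Tectb (179660.4 ± 27911 in KO, 214099 ± 73356 in WT) and S100a1 (42601 ± 1781 in KO, 42761 ± 20484 in WT). None of the 12 supporting cell markers passed the adjusted limma test. An unadjusted limma p under 0.05 was held by 3 of them and by 5.57% of all tested genes. Values of 2 of the 12 did not overlap between genotypes, lower in KO, as for 1.58% of all tested genes.

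Levels of different genes were compared per kilobase of merged exons, a measure that depends on the length chosen. By it the receptor genes were among the most abundant in these libraries, which also held RNA of other cells. Chrna10 had 15069 ± 969 normalized counts per kilobase in KO libraries and 15458 ± 269 in WT libraries. By its mean over 8 libraries it ranked 91 of 25332 genes with a known length. Chrna9 had 7587 ± 911 in KO libraries and 6471 ± 1062 in WT libraries and ranked 241. Actb and Gapdh, which are used in every cell, ranked 108 and 199, so with this length Chrna10 lay above both and Chrna9 below both. Chrna1 had 4466 ± 334 per kilobase in KO libraries and 3842 ± 376 in WT libraries and ranked 499. That placed the muscle subunit above the hair cell transcription factor gene Pou4f3, at rank 970, and the hair cell myosin gene Myo7a, at rank 1363. It lay below the hair cell marker Calb1, at rank 29, and the outer hair cell marker Slc26a5, at rank 416. Kcnn2 had 472 ± 26.5 per kilobase in KO libraries and 387 ± 51.8 in WT libraries, at rank 4964. Rapsn had 11.5 ± 6.19 in KO libraries and 14.2 ± 9.03 in WT libraries, at rank 15929.

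The order Chrna10, Chrna9, Chrna1, Kcnn2, Rapsn held in 8 of 8 libraries. Chrna10 was 1.68 to 2.46 times Chrna9 per kilobase in KO libraries and 2.05 to 2.85 times in WT libraries. Chrna9 was 1.42 to 2.01 times Chrna1 over the 8 libraries, so every neighbouring pair of the 3 subunit genes stayed apart within each library. Below them came a wide step, since Chrna1 was 8.22 to 14.0 times Kcnn2, and Kcnn2 was 15.6 to 108 times Rapsn. The choice of length bears on the first gap: with the longest coding transcript in place of merged exons, Chrna10 was 1.07 to 1.57 times Chrna9 in KO libraries and 1.30 to 1.81 times in WT libraries. The order was the same in 8 of 8 libraries with that length too, and the genes then ranked 118, 174, 763, 3779 and 13206 of 16907. Gapdh and Actb ranked 69 and 111 with that length, so Chrna10 then lay below both.

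**Figure D1:**
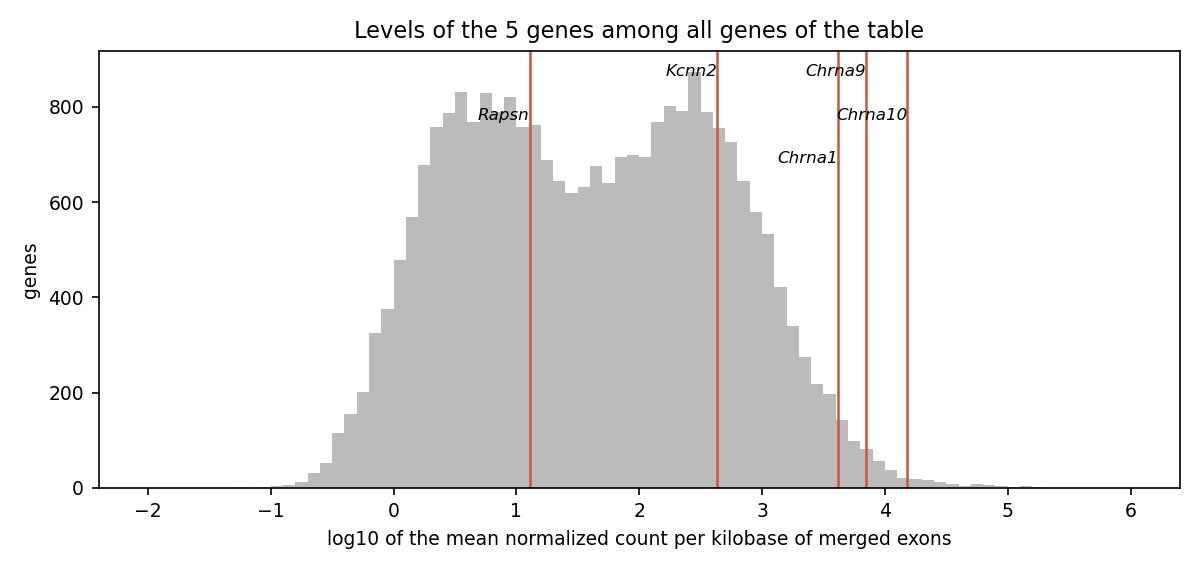
Histogram of log10 of the mean normalized count per kilobase of merged exons over 8 libraries, for 25332 genes, with a red line at each of the 5 genes. Chrna10 (rank 91), Chrna9 (rank 241) and Chrna1 (rank 499) lie in the upper tail, Kcnn2 on the upper shoulder and Rapsn among low genes.

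None of the 5 genes passed the genotype test. The test was limma on log2(normalized count + 1) over 18203 genes with Benjamini-Hochberg adjustment at 0.05, and 0.00549% of those genes were called. At an unadjusted p under 0.05 in that limma fit, 0 of the 5 passed, where 5.57% of all tested genes did. DESeq2 on the recovered reads called 0 of the 5 and 0.0882% of all genes, and the authors' deposited table called 0 of the 5 and 0.136% of all genes. Values of 1 gene, Kcnn2, did not overlap between genotypes, with every KO library above every WT library. Among all tested genes 1.46% did not overlap in that direction and 1.58% in the other. No adjusted p could be read as equality, so the interval of each difference is given. The labels do not say that the tubes came from separate litters, so each p-value reflects the spread among these libraries alone, some of which could be technical. Fewer cells of a type and less RNA per cell cannot be told apart in such pools.

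**Figure D2:**
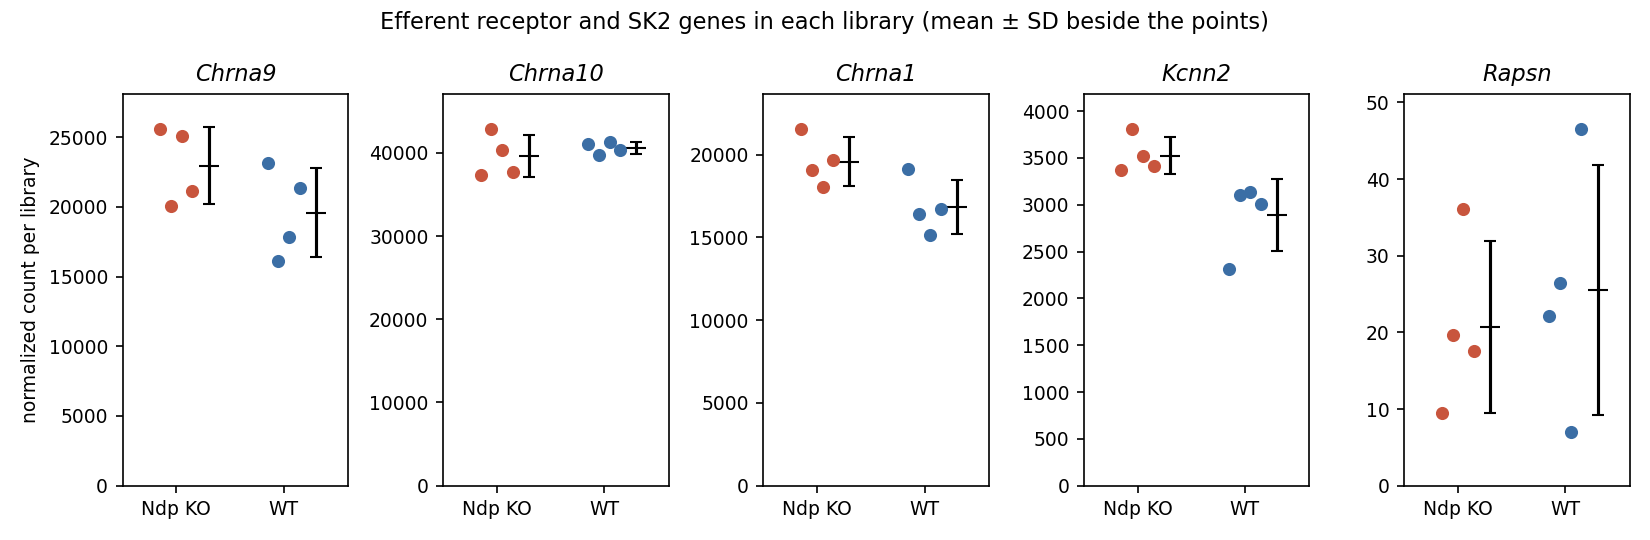
Normalized counts of the 5 genes in 4 Ndp KO libraries (red, left) and 4 WT libraries (blue, right), with bars for mean ± SD beside the points and axes from 0. Kcnn2 points do not overlap between genotypes, with WT replicate 1 lowest at 2318, and Chrna10 points lie between 37399.9 and 42855.

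Chrna9 (ENSMUSG00000029205, chr5:65934921-65977326, plus strand, mm10) encodes the alpha 9 subunit of the efferent receptor. It had 25568, 20064, 25048 and 21158 normalized counts in KO replicates 1 to 4 and 23109.7, 16077, 17799 and 21334 in WT replicates 1 to 4. KO replicates 1 and 3 stood above all WT libraries and WT replicates 2 and 3 below all KO libraries, while KO replicates 2 and 4 lay below WT replicates 1 and 4. Means were 22959.7 ± 2756 in KO libraries and 19579.8 ± 3213 in WT libraries. The log2 difference was 0.24 ± 0.15 (SE), with a 95% interval of -0.09 to 0.57, that is, a fold of 0.937 to 1.48 (limma adjusted p = 0.927). Without WT replicate 2 the difference was 0.15.

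Chrna10 (ENSMUSG00000066279, chr7:102111266-102116828, minus strand) encodes the alpha 10 subunit, which joins alpha 9 in the mature receptor. Its counts were 37399.9, 42855, 40394 and 37758 in KO replicates 1 to 4 and 41113, 39744, 41274 and 40363 in WT replicates 1 to 4. The WT libraries lay close together within the wider KO range. Means were 39602 ± 2547 in KO libraries and 40623 ± 708 in WT libraries, and the log2 difference was -0.04 ± 0.11 (95% interval -0.28 to 0.20, limma adjusted p = 0.992). That interval covers folds of 0.826 to 1.15. Its 95% interval was the narrowest of the 5 genes.

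Chrna10 was also among the steadiest genes of its level. Its coefficient of variation over the 8 libraries was 4.52%, and the highest library held 1.15 times the lowest. Of 191 other genes within 2-fold of its mean, 1 had a smaller coefficient, and the median of those genes was 16.7%. Scaling to the total count, to TMM or to the hair cell markers, chosen after the values were seen, gave 5.33%, 4.61% and 8.49%, with 2, 0 and 4 genes below it. By contrast Chrna9 had 15.6% and 265 of 532 genes of its level had a smaller coefficient. Chrna1 had 11.3% and Kcnn2 13.8%. These figures describe 8 libraries and were not tested.

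Chrna10 shares 1025 exon bases with Art1, an ADP-ribosyltransferase gene on the opposite strand, and the library kit does not mark strand, so reads there cannot be told apart. Art1 had 854, 1236, 1144 and 1080.1 normalized counts in KO replicates 1 to 4 and 904, 1566, 1476 and 1080.1 in WT replicates 1 to 4. Its means were 1078 ± 163 in KO libraries and 1257 ± 316 in WT libraries, far below Chrna10. With the reads of both genes summed, an alternative chosen after seeing the data, the Chrna10 log2 difference stayed at -0.04 (limma adjusted p = 0.991).

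Chrna1 (ENSMUSG00000027107, chr2:73563215-73580338, minus strand) encodes the alpha 1 subunit of the muscle receptor. It had 21542, 19089, 18053 and 19663 normalized counts in KO replicates 1 to 4 and 19104, 16420.1, 15155 and 16724 in WT replicates 1 to 4. The genotypes overlapped only through WT replicate 1, which exceeded KO replicates 2 and 3. Means were 19587 ± 1464 in KO libraries and 16851 ± 1649 in WT libraries, a log2 difference of 0.22 ± 0.12 (95% interval -0.05 to 0.48, limma adjusted p = 0.917). That interval covers folds of 0.969 to 1.40.

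Markers of skeletal muscle were low beside Chrna1, and which cells carried the Chrna1 RNA was not tested. Of 15 such genes, 9 were in the table, and their summed level was 244 to 371 normalized counts in KO libraries and 174 to 647 in WT libraries. Mylpf, a myosin light chain gene, had the highest mean of them, with 266 ± 34.2 in KO libraries and 278 ± 142 in WT libraries. Ttn, the gene of the giant sarcomere protein titin, had 24.2 ± 37.0 in KO libraries and 105 ± 129 in WT libraries. The muscle regulators Myod1 and Myog were each at 0 in 3 KO and 2 WT libraries. The sum of these 9 genes reached at most 647 normalized counts, beside at least 15155 for Chrna1 in every library. The other listed genes, Myf5, Myf6, Actc1, Myh3, Tnni2 and Ckm, had no row under those names in the deposited gene table.

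Rapsn (ENSMUSG00000002104, chr2:91035620-91045729, plus strand) encodes rapsyn. It rested on 9, 20, 40 and 16 reads in KO replicates 1 to 4 and 21, 29, 9 and 40 reads in WT replicates 1 to 4. Those were 9.49, 19.6, 36.1 and 17.6 normalized counts in KO libraries and 22.2, 26.5, 7.02 and 46.5 in WT libraries. All values lay above the floor of 3 reads, and the highest library held 6.63 times the lowest, with both extremes in WT. Means were 20.7 ± 11.2 in KO libraries and 25.5 ± 16.3 in WT libraries, and the log2 difference was -0.18 ± 0.68 (limma adjusted p = 0.995). Its 95% interval of -1.67 to 1.32 covers folds of 0.315 to 2.49. The sign of the difference rested on single libraries, being 0.13 without KO replicate 1 and 0.19 without WT replicate 4. Gm13778, on the opposite strand, shares 4 exon bases with Rapsn.

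Kcnn2 (ENSMUSG00000054477, chr18:45268860-45686024, plus strand) encodes the SK2 channel. It had 3368, 3807, 3517 and 3409.6 normalized counts in KO replicates 1 to 4 and 2318, 3105, 3138 and 3005 in WT replicates 1 to 4. Every KO library lay above every WT library, and WT replicate 1 lay well below the other 3 WT libraries. Means were 3526 ± 198 in KO libraries and 2891 ± 387 in WT libraries, a log2 difference of 0.29 ± 0.14 that missed the threshold (limma adjusted p = 0.903). The 95% interval of -0.01 to 0.60 covers folds of 0.992 to 1.52. Without WT replicate 1 the difference was 0.19. Scaled to the hair cell markers, it was 0.22, and the genotypes overlapped, with 3135 to 3693 in KO libraries and 2474 to 3407 in WT libraries. The authors' deposited table gave an unshrunken log2 difference of 0.29, with an unadjusted p of 0.0377 and an adjusted p of 0.769. The antisense gene A330093E20Rik shares 284 exon bases with Kcnn2 and had a mean of 47.7 normalized counts. The pseudogene AC121957.1 shares 323.

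For the other 4 genes the unshrunken log2 differences of the authors' deposited table, turned to KO over WT, were 0.23 for Chrna9, -0.04 for Chrna10, 0.22 for Chrna1 and -0.29 for Rapsn. The shrunken log2 fold changes of the authors' deposited table were 0.20 for Chrna9, -0.035 for Chrna10, 0.20 for Chrna1, -0.082 for Rapsn and 0.26 for Kcnn2. Libraries carry dates in their titles, and 1 date occurs in both genotypes, for KO replicate 2 and WT replicate 2. Between these libraries the log2 difference was 0.32 for Chrna9, 0.11 for Chrna10, 0.22 for Chrna1, -0.41 for Rapsn and 0.29 for Kcnn2. Over the other 6 libraries it was 0.21, -0.09, 0.22, -0.10 and 0.30 in the same order. The sign of the Chrna10 difference thus differed between the pair of the shared date and the rest, and the other 4 signs did not. The labels do not say what the dates mark.

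**Figure D3:**
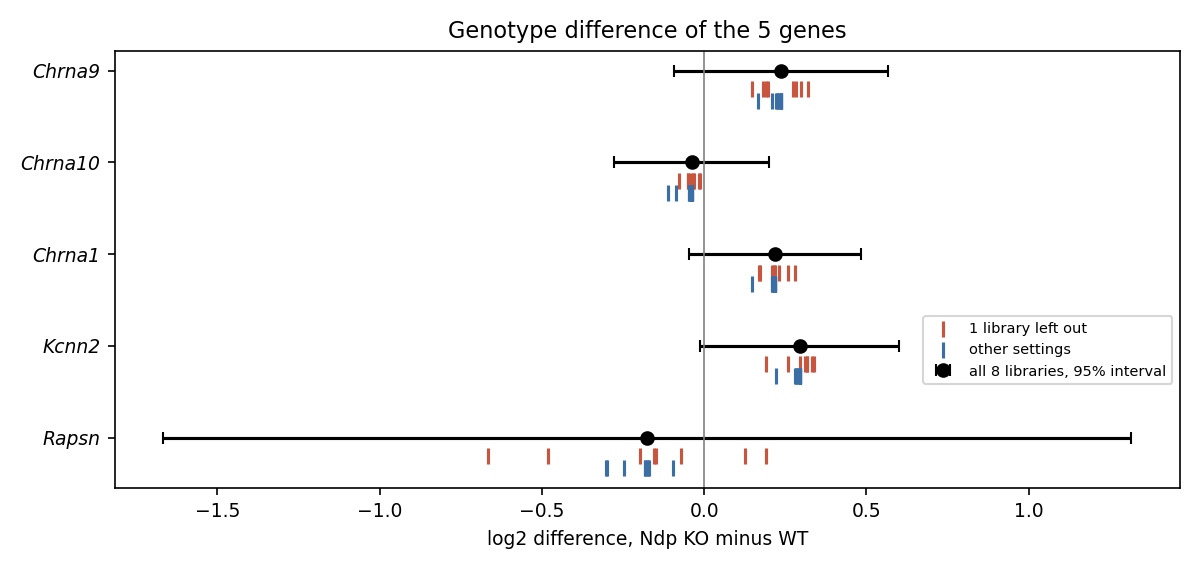
Log2 difference, Ndp KO minus WT, for each of the 5 genes: black points and bars show the limma estimate and its 95% interval, red ticks the values with 1 library left out and blue ticks those under other settings. The estimate for Kcnn2 is 0.29, and the ticks of Rapsn alone lie on both sides of 0.

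Outer hair cell markers varied among the same libraries, and their part in the Chrna9, Chrna1 and Kcnn2 values was not tested. The 12 of 12 listed genes summed to 188474, 115595, 209529.8 and 152262 normalized counts in KO replicates 1 to 4 and 108574, 120118, 103491 and 105322 in WT replicates 1 to 4. All 12 had a positive log2 difference, with a median of 0.56 against 0.02 over all tested genes, and none passed the adjusted limma test. At an unadjusted limma p under 0.05, 4 of the 12 passed, where 5.57% of all tested genes did. Of 10 tested inner hair cell markers, 0 did. The most abundant of them, Strip2 and Ocm (the calcium buffer oncomodulin), had 74563 ± 16574 and 27694 ± 8536 in KO libraries and 47329.6 ± 14131 and 16711 ± 8852 in WT libraries. KO replicates 1 and 3, with the highest outer hair cell sums, also held the 2 highest Chrna9 values. KO replicate 4 came next and KO replicate 2 was lowest of the KO libraries in both. WT replicates 1, 4 and 3 ranked in that order in both. WT replicate 2 had the highest outer hair cell sum of the WT libraries and the lowest Chrna9 of all 8. Chrna1 was lowest among KO libraries in KO replicate 3, where the outer hair cell sum was highest. The highest Kcnn2 library, KO replicate 2, had the lowest outer hair cell sum of the KO libraries. These orders describe single libraries, and what lies behind them was not tested. Inner hair cell markers (10 of 11) summed to 28190.0 to 36462 in KO libraries and 32929 to 36745 in WT libraries. Among them Rprm had 12928 ± 3569 in KO libraries and 15785 ± 2475 in WT libraries, and Slc7a14 had 5987 ± 444 and 6213 ± 1315, KO libraries first.

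**Figure D4:**
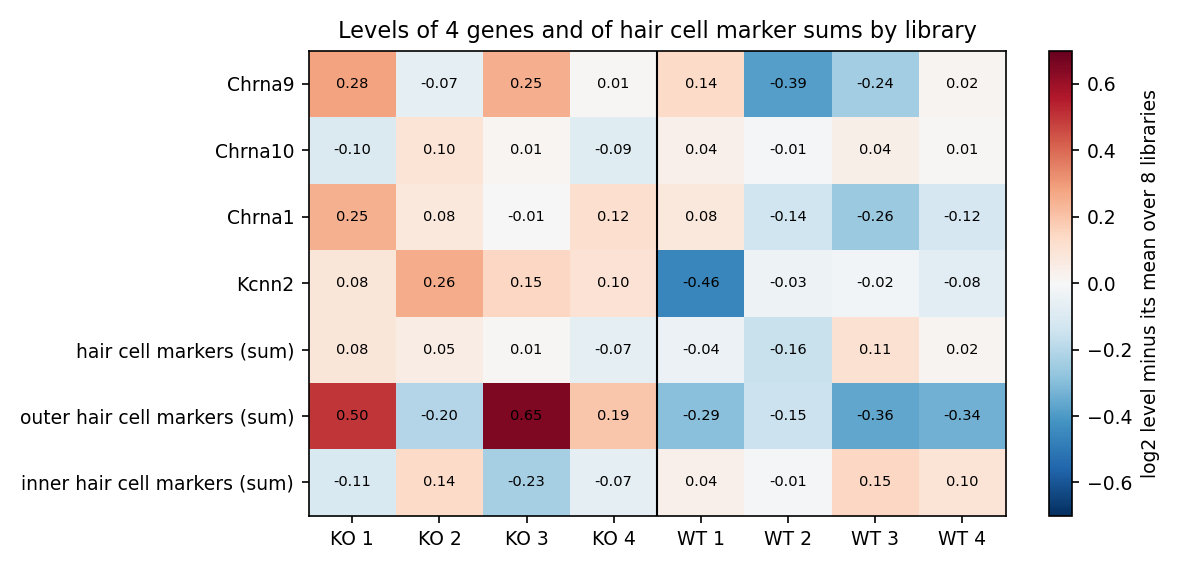
Log2 level of 4 genes and of summed hair cell marker lists in each of 4 KO and 4 WT libraries, minus the mean over 8 libraries of each row; red is above and blue below the mean. Kcnn2 is lowest in WT 1 (-0.46), outer hair cell markers are highest in KO 3 (0.65), and the Chrna10 row stays between -0.10 and 0.10.

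Markers of cells outside the hair cell lineage also differed between libraries. Macrophage markers (11 of 11, 10 with a positive log2 difference and a median of 1.73) summed to 3756 to 5947 normalized counts in KO libraries and 2098 to 4993 in WT libraries, with C1qb at 2353 ± 312 in KO and 2043 ± 346 in WT and Lyz2 at 620.3 ± 278 and 302 ± 509. Endothelial markers (7 of 9 in the table) summed to 189 to 327 in KO libraries and 92.2 to 197 in WT libraries, with Emcn at 102 ± 56.8 and 51.2 ± 22.5 and Flt1 at 39.1 ± 27.0 and 16.9 ± 19.6. Mesenchyme markers (10 of 10) summed to 21464 to 30535 in KO libraries and 17656 to 24385 in WT libraries, with Lum at 8500.5 ± 1736 and 10017 ± 2659 and Pdgfra at 4170.4 ± 237 and 3769.8 ± 1360.01. Glia and neuron markers (12 of 14 in the table) summed to 26390.3 to 33854 in KO libraries and 24602 to 33897 in WT libraries, with Nefl at 15558 ± 2065 and 15420.3 ± 2213 and Nefm at 5055 ± 788 and 6619.6 ± 886. KO values come before WT values for each of these genes. Of 6 tested endothelial markers 5 had a positive log2 difference, with a median of 1.43. Positive differences were also found for 7 of 10 mesenchyme markers (median 0.42) and 6 of 10 tested glia and neuron markers (median 0.16). None of these genes passed the adjusted limma test. At an unadjusted limma p under 0.05, 4 of 11 macrophage and 1 of 6 endothelial markers passed, where 5.57% of all tested genes did. So did 3 of 10 mesenchyme and 2 of 10 glia and neuron markers. The part of these markers in the values of the 5 genes was not tested.

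Ratios within a library remove the size factor. Chrna10 over Chrna9 was 1.46, 2.14, 1.61 and 1.79 in KO replicates 1 to 4 and 1.78, 2.47, 2.32 and 1.89 in WT replicates 1 to 4, as ratios of normalized counts. The genotypes overlapped, with means of 1.75 ± 0.290 in KO libraries and 2.12 ± 0.333 in WT libraries. Kcnn2 over Chrna9 was 0.132, 0.190, 0.14 and 0.161 in KO replicates 1 to 4 and 0.10, 0.193, 0.176 and 0.141 in WT replicates 1 to 4. The means, 0.156 ± 0.0258 in KO libraries and 0.153 ± 0.0411 in WT libraries, differed by less than the spread between libraries. Chrna1 over Chrna9 averaged 0.861 ± 0.105 in KO libraries and 0.871 ± 0.104 in WT libraries, again less apart than the spread between libraries.

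Across libraries the profiles of the 5 genes were compared by the root mean square difference of their mean-centred log2 levels over 8 libraries. The closest pair was Chrna9 and Chrna1, at 0.15, followed by Chrna10 and Chrna1 at 0.19 and Chrna10 and Kcnn2 at 0.21. Chrna9 and Chrna10, whose products share a receptor, were at 0.24, and Chrna9 and Kcnn2 were at 0.30. Rapsn was at 0.80 to 0.85 from each of the others. By the same measure over all tested genes, the genes most like Chrna9 were Cnot9 (0.08), Cgrrf1 (0.09) and Nucks1 (0.10). Those most like Chrna10 were Sap30bp (0.04), Rab3ip (0.05) and Gorasp1 (0.05), and those most like Chrna1 were Dnajb9 (0.06), Gm15387 (0.07) and Gm43537 (0.07). For Kcnn2 they were Magee1, B3galt6 and Wdr41, each at 0.09, and for Rapsn they were Fgr (0.30), Gpat2 (0.30) and Gm10605 (0.35). These are descriptions over 8 libraries that share their preparation.

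Of the other nicotinic subunits, Chrng, the fetal gamma subunit of the muscle receptor, led the list. Of 13 listed genes 11 were in the table and 8 were tested, and 0 passed the adjusted limma test in either direction. The log2 difference was positive for 4 and negative for 4, with a median of -0.13 against 0.02 over all tested genes. In limma 5.57% of all tested genes had an unadjusted p under 0.05, and 1 of these 8 did. That gene was Chrng, with 1493, 1775, 683 and 1779.6 normalized counts in KO replicates 1 to 4 and 2930.0, 1708, 3972 and 2006 in WT replicates 1 to 4. WT replicate 2 lay within the KO range, so the genotypes overlapped. Its means were 1433 ± 517 in KO libraries and 2654 ± 1021 in WT libraries, a log2 difference of -0.91 ± 0.34 (limma adjusted p = 0.895). Without KO replicate 3, the lowest library, the difference was -0.58, and its unadjusted p was then over 0.05. Chrnb1, the muscle beta subunit, had 335 ± 13.1 in KO libraries and 513 ± 187 in WT libraries, a log2 difference of -0.53 ± 0.29. Chrnd, the muscle delta subunit, was at 0 in all 4 KO libraries and 3 WT libraries and had 12.7 in WT replicate 1. In these libraries the muscle alpha subunit gene was thus abundant, gamma and beta lower, and delta near the floor.

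The neuronal subunit genes were lower than the receptor pair in both genotypes. Chrnb2, a beta subunit of brain receptors, had 1659 ± 353 normalized counts in KO libraries and 1321 ± 549 in WT libraries. Chrnb4, a beta subunit of ganglionic receptors, had 318 ± 78.2 in KO libraries and 349 ± 206 in WT libraries. Chrna3, the ganglionic alpha subunit, had 80.4 ± 100.3 in KO libraries and 17.3 ± 17.5 in WT libraries. Chrna4, the alpha partner of beta 2 in the brain, had 18.1 ± 15.2 and 85.3 ± 100.7, and the accessory subunit Chrna5 had 24.9 ± 9.37 and 29.4 ± 41.2, KO libraries first. Chrna7, which forms receptors on its own, had 34.4 ± 18.1 in KO libraries and 40.9 ± 14.8 in WT libraries. None of these passed the test, and their libraries overlapped between genotypes.

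**Figure D5:**
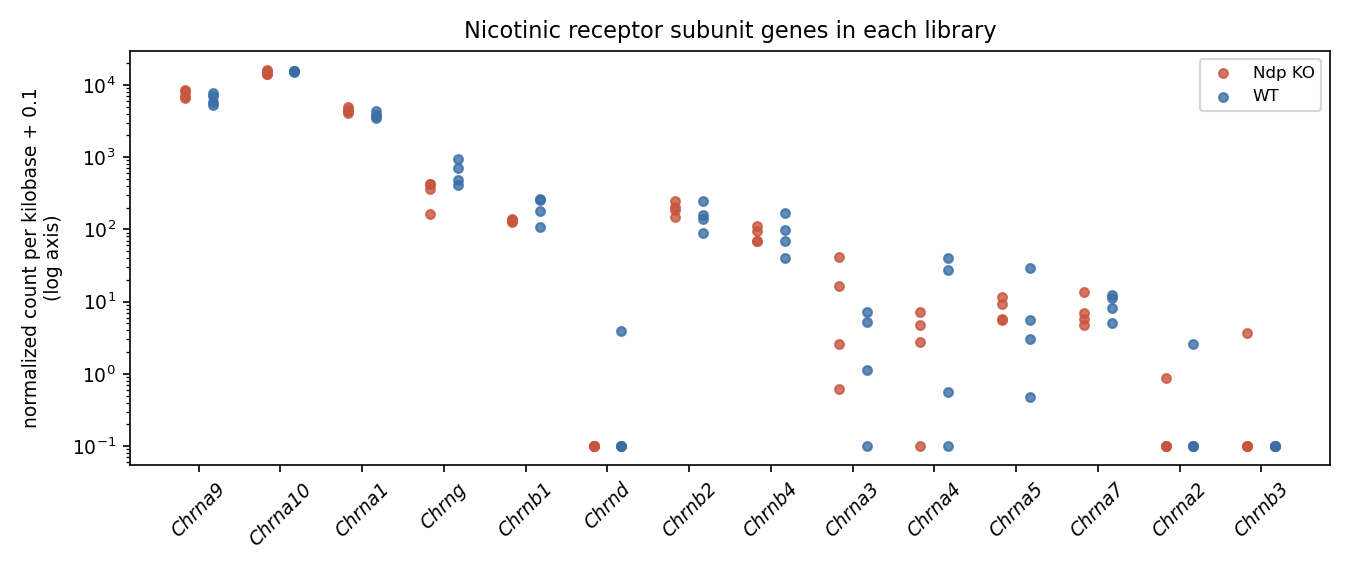
Normalized count per kilobase of merged exons, plus 0.1, on a log axis, for 14 nicotinic subunit genes in 4 Ndp KO (red, left) and 4 WT (blue, right) libraries. Chrna10, Chrna9 and Chrna1 stand above all others, and Chrnd is at 0 in all KO libraries.

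Genes that assemble and cluster nicotinic receptors did not pass the test either. Of 16 listed and tested genes 0 were called, 7 had positive and 9 negative log2 differences, and the median was -0.03. An unadjusted limma p under 0.05 was found for 1 of the 16 and for 5.57% of all tested genes. Tmem35a, which encodes the nicotinic receptor chaperone NACHO, led the list by p, with 131 ± 133 normalized counts in KO libraries and 26.9 ± 24.5 in WT libraries (log2 difference 2.30 ± 0.84, limma adjusted p = 0.895). KO replicate 1 held 328, and the other KO libraries 37.9 to 94.2. Lynx1, a membrane-anchored modulator of nicotinic receptors, had 113 ± 77.3 in KO libraries and 54.8 ± 61.8 in WT libraries. Agrn and Dok7, of the agrin pathway that clusters muscle receptors, had 2731 ± 286 and 779.7 ± 50.7 in KO libraries and 3028 ± 217 and 680.2 ± 98.8 in WT libraries. Musk, the muscle receptor kinase of that pathway, had 12.8 ± 15.3 in KO libraries and 6.75 ± 7.90 in WT libraries. Tmie, a hair cell transduction protein, had 2548 ± 301 in KO libraries and 2849 ± 465 in WT libraries, and Ric3, a receptor chaperone, had 1408 ± 342 and 1637 ± 484, KO libraries first. Those 3 were chosen after their values were seen.

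Among other calcium-activated potassium channels, 8 listed genes were in the table and 6 were tested, with 0 called. Differences were positive for 4 and negative for 2, with a median log2 difference of 0.15. An unadjusted limma p under 0.05 was found for 1 of the 6 and for 5.57% of all tested genes. Kcnn1, the SK1 channel, had 237, 345, 299 and 491 normalized counts in KO replicates 1 to 4 and 193, 152, 285 and 186 in WT replicates 1 to 4. WT replicate 3 lay within the KO range. Means were 343 ± 108 in KO libraries and 204 ± 57.2 in WT libraries, a log2 difference of 0.73 ± 0.29 (limma adjusted p = 0.895). Kcnn3, the SK3 channel, was too low to be tested, at 0, 3.92, 0 and 0 in KO libraries and 17.9, 10.95, 44.4 and 4.65 in WT libraries. Kcnn2 was thus the SK gene with by far the most reads. Kcnma1, the large-conductance BK channel, had 605 ± 334 in KO libraries and 335 ± 118 in WT libraries. Its auxiliary subunit gene Kcnmb2 had 3530.4 ± 520.5 in KO libraries and 3322 ± 668 in WT libraries, and Lrrc52, a further BK auxiliary gene, had 10.1 ± 10.2 and 12.6 ± 6.94, KO libraries first.

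Calcium-handling genes near the synaptic store gave 0 calls among 17 tested of 18 in the table and 19 listed. Differences were positive for 10 and negative for 7, with a median of 0.09. An unadjusted limma p under 0.05 was found for 1 of the 17 and for 5.57% of all tested genes. Itpr2, an inositol trisphosphate receptor of the calcium store, had 2111 ± 299 normalized counts in KO libraries and 3125 ± 568 in WT libraries, a log2 difference of -0.56 ± 0.17 (limma adjusted p = 0.895). Its KO replicate 2, at 2494, overlapped WT replicate 3, at 2317. Atp2a3, the calcium pump of the store, had 19080.02 ± 5667 in KO libraries and 12351 ± 7889 in WT libraries, and Atp2b2, the plasma membrane pump of hair bundles, had 11543 ± 2040.01 and 8937 ± 2593, KO libraries first. Ryr1, a store release channel, had 89.5 ± 43.5 in KO libraries and 58.3 ± 38.1 in WT libraries.

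Muscarinic receptors, receptors for other efferent transmitters with their accessory proteins, and cholinesterases were listed together and gave no called gene either. Of 15 listed genes 10 were tested, 0 were called, 7 were positive and 3 negative, and the median log2 difference was 0.17. An unadjusted limma p under 0.05 was found for 2 of the 10 and for 5.57% of all tested genes. Gabbr2, a GABA-B receptor subunit, had 127 ± 147 normalized counts in KO libraries and 20.4 ± 20.8 in WT libraries (log2 difference 2.37 ± 0.84, limma adjusted p = 0.895), and KO replicate 1 alone held 345. Chrm3, a muscarinic receptor, had 42.5 ± 24.6 in KO libraries and 12.5 ± 14.7 in WT libraries (log2 difference 2.72 ± 1.08, limma adjusted p = 0.895). That difference depended on the setting, at 1.74 with edgeR, 1.75 with DESeq2, 3.75 with a pseudocount of 0.1, 1.79 with a pseudocount of 5 and 1.52 without the libraries of the shared date. Chrm1, another muscarinic receptor, had 32.9 ± 19.4 in KO libraries and 15.0 ± 15.1 in WT libraries. Ramp2, an accessory protein of the receptor for calcitonin gene-related peptide and its relatives, had 52.9 ± 23.4 in KO libraries and 93.7 ± 57.7 in WT libraries.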

How the data were processed

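RNA of Atoh1-GFP sorted hair cells was purified by RNeasy Plus Micro columns, copied with SMART-Seq v4 and made into libraries with Nextera XT, a kit that does not mark strand, per the labels' protocols. Build mm10, DESeq2 1.26.0, Salmon 0.14.2 and bcl2fastq 2.20 stand in the submitters' processing notes, without roles. The deposited signal columns hold normalized counts, gene counts divided by 1 size factor per library. The authors also deposited log2 fold changes and p-values of their comparison. Whole reads were recovered from the columns: all 202744 values (100%) came within 1e-06 of an integer, which does not show whether they were counted reads or rounded estimates. Per-sample columns not used numbered 0.

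Groups follow the genotype labels, and pairs of libraries within a genotype differed by a mean chi-square of at least 32.0 per gene against counting noise alone, so none was taken as a library deposited again. This does not show that they came from separate pools. Genes with at least 10 normalized counts in at least 4 libraries (18203) were tested with limma 3.58.1 (R 4.3.3, moderated, with intensity trend) on log2(normalized count + 1), with Benjamini-Hochberg adjustment at 0.05. The values as deposited are normalized, so the count tests on recovered reads served as alternatives. edgeR 4.0.16 and DESeq2 1.42.0 on recovered reads, other scalings, filters, pseudocounts and each library left out were alternatives, and the test was tried on simulated data. Intervals are limma's 95% intervals. Lengths came from GENCODE M21, coordinates from the deposited table and promoters from RefSeq. Floors cover counting error only.

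The 5 genes and the lists were chosen with earlier results of these data known. Genes named beside them are those of each pathway list with the smallest limma p (up to 4), other nicotinic subunits with a mean of at least 10, the 3 genes most like each of the 5, Ndp, and the 2 highest genes of each marker list. Art1, Myod1, Myog, Chrnd, Kcnn3, Musk, Ric3, Tmie, Actb, Gapdh, Pou4f3, Myo7a and Slc26a5 were named after their values were seen. Summing Chrna10 with Art1, and the coefficient of variation under other scalings, were also added after seeing the data.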

Additional observations from a re-analysis of the deposited data

Results flagged for a closer look

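In 70 groups of 4 libraries, 1 library stood apart from the other 3 by Dixon's criterion (the gap to the next library over the whole range) in 3 groups, and chance gives about 1 in 20. Kcnn2 had 2318 normalized counts in WT replicate 1, where the other WT libraries held 3005 to 3138. Atp2a3, the calcium pump of the store, had 24123 in WT replicate 2, where the other WT libraries held 7709 to 9545. Gabbr2, a GABA-B receptor subunit, had 345 in KO replicate 1, where the other KO libraries held 24.5 to 71.3.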

How the results depend on the processing

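No paired analysis was possible because the labels give the genotypes no shared replicate numbers, and 1 title date occurs in both genotypes. Over 18 settings the log2 difference was 0.15 to 0.32 for Chrna9, 0.15 to 0.28 for Chrna1 and 0.19 to 0.34 for Kcnn2, over 19 settings it was -0.11 to -0.01 for Chrna10, and over 17 settings -0.66 to 0.19 for Rapsn, which has no value under the filter of 100. None passed the adjusted threshold in any of them. Kcnn2 had an unadjusted p under 0.05 in 3 settings, and its lowest adjusted p was 0.532. The count of called genes over the whole table was 1 with limma, 0 with a pseudocount of 0.1, with the filter of 100, with edgeR and without the libraries of the shared date, 16 with DESeq2, and 0 to 2 with 1 library left out (2 without KO replicate 2). The hair cell marker scaling moved the median of all genes to -0.06, against 0.02 with the authors' size factors.

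With 1 library left out, Rapsn ran from -0.66 to 0.19, Lrrc52 from -1.49 to 0.059, Kcnmb2 from -0.012 to 0.21, Chrna4 from -2.09 to 0.46, Chrna5 from -0.048 to 1.75 and Chrnb4 from -0.32 to 0.37. Without the libraries of the shared date, Lrrc52 was 0.34 and Chrna4 1.60. Chrna5 was -0.25 with edgeR and -0.25 with DESeq2. Chrnb4 was -0.047 under hair cell marker scaling, -0.14 with edgeR and -0.14 with DESeq2. The single libraries whose absence turned a sign were KO replicate 2 for Lrrc52, WT replicate 2 for Kcnmb2, KO replicate 2 and WT replicates 1 and 2 for Chrna4, WT replicate 4 for Chrna5, and KO replicates 1 and 3 and WT replicates 1 and 4 for Chrnb4. The cause of these reversals was not tested. Rapsn rested on 9 to 40 reads a library. The unadjusted p reached 0.05 or more for Chrm3 in 7 of 17 settings, for Kcnn1 in 6 of 18, for Chrng in 3 of 18, for Tmem35a in 2 of 17, for Gabbr2 in 1 of 17 and for Itpr2 in 0 of 18.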
